A study of Mus musculus with 6 samples.

Results

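Solute carriers are the membrane proteins that move sugars, amino acids, vitamins, ions and metabolites into and out of cells, named Slc with a family number and a member letter. The genes described here are the protein-coding genes so named with a mean of 1 or more FPKM over all 6 samples. FPKM, deposited by the authors, are fragments divided by transcript length and library size. Of 349 genes with such a name in the deposited table of 28752 genes, 335 were protein coding, and 132 of those were under the minimum. A further 3, Slc40a1, Slc11a2 and Slc10a2, were left out, so 200 genes remained. The level in FPKM chose these genes and is given below as a description. The 2 members just inside the minimum were Slc17a9 (mean 1.01 FPKM) and Slc6a7 (1.02 FPKM), and the 2 genes just outside it were Slc2a8 (0.997 FPKM) and Slc5a3 (0.928 FPKM).

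The samples were mouse intestinal crypt stem cells, Lgr5+ cells taken from Lgr5-GFP mice and cultured into organoids, with the genotype labelled WT. One group carried the vector (n = 3) and the other overexpressed circEZH2_005, a circular RNA, from an adenovirus (n = 3). All 6 samples went through hypoxia/reoxygenation (H/R), 72 h after infection, with 4 h of hypoxia at 2% O2, so no group here was kept in normal oxygen. The infection time is that of the labels, while the study's organoid methods give a shorter time, stated for transfection. The age and number of mice and the source of the replicates are not given in the labels, so p-values measure only the spread between these samples, which may be technical.

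A dietary molecule crosses an absorptive enterocyte in steps. It enters through carriers of the brush border, the microvillar surface that faces the gut lumen, and it leaves through carriers of the basolateral membrane that faces the blood. Many of the brush border carriers draw on the sodium gradient, while others use protons, and the SLC25 family works in the inner mitochondrial membrane. Enterocytes gain most of the absorptive carriers as they leave the crypt and mature on the villus.

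Depth ran from 71506487 to 79919893 counts per sample. Across genes, on log2 CPM (library-size-scaled counts, with TMM factors), vector sample 2 correlated with the other vector samples at 0.97 and with the circEZH2_005 samples at 0.97 as well, whereas the other vector samples correlated with the circEZH2_005 samples at 0.95 to 0.96. The crypt label was checked against marker genes fixed as lists. The stem cell marker Lgr5 was at 16.1, 12.1 and 18.3 CPM with vector and at 8.55, 9.10 and 7.70 CPM with circEZH2_005. The 7 crypt stem markers summed to between 1638 and 3049 CPM, and the 10 enterocyte markers to between 14959 and 30577 CPM, so transcripts of mature enterocytes were abundant in every library. The 12 leukocyte markers summed to 83.4, 212 and 103 CPM with vector and 495, 376 and 285 CPM with circEZH2_005. None of these 12 was at 0 in any sample. By edgeR's quasi-likelihood test 0 of 12 passed, with 5 higher and 0 lower at an unadjusted p under 0.05. DESeq2 called 3 higher and 0 lower. Before adjustment 14% of all genes tested were higher and 9.72% lower, and DESeq2 called 9.25% and 4.1%. In bulk RNA, fewer cells of a type and less RNA per cell cannot be told apart.

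The levels of the 200 carriers covered a wide range. There were 5 members with a mean of 100 FPKM or more, 88 from 10 to 100 FPKM and 107 below 10 FPKM, with a median of 9.01 FPKM. Slc25a5, which exchanges ADP for ATP across the inner mitochondrial membrane, had the highest mean at 802.9 FPKM. Its processed copies and its relatives may share reads with it, so its level is uncertain. Next came Slc5a1, the sodium-glucose cotransporter of the brush border, at 363.6 FPKM. Slc9a3r1 followed at 228.8 FPKM. It carries a solute carrier name but is a scaffold protein that anchors transporters under the apical membrane. Slc27a4, the fatty acid transport protein of enterocytes, was at 134.9 FPKM, and Slc25a3, which imports phosphate into mitochondria, at 130.7 FPKM. The order of Slc27a4 and Slc25a3 lies within the spread over samples, which was 43 FPKM (SD, n = 3) for Slc27a4 with circEZH2_005. Between the groups these 5 had adjusted p-values from 0.0553 to 0.782 (edgeR), and none passed.

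Comparing circEZH2_005 with vector under H/R, few carriers differed past the threshold, and their share was near that of other genes. With edgeR's quasi-likelihood test, adjusted by Benjamini-Hochberg over 18348 genes, 9 of 200 members rose and 2 fell at an adjusted p under 0.05. Over all genes tested, 2.69% rose and 0.986% fell, and among protein-coding genes averaging 1 FPKM or more these shares were 3.62% and 1.43%. In either direction it was 3.67% of all genes. The 5.5% of members called was near the 5.04% of protein-coding genes at that level. At an unadjusted p under 0.05, 40 members were higher and 29 lower, against 14% and 9.72% of all genes tested. The median log2 fold change was 0.06 over members and 0.00 over all genes. The CPM of the groups did not overlap in 60 of 200 members (30%), 37 with all circEZH2_005 samples above and 23 with all below, against 30.6% of all genes tested (16.4% above and 14.2% below) and 36.9% of protein-coding genes at that level. On log2(FPKM + 1), limma called 8 members higher and 4 lower, against 2.33% and 2.2% of the genes it tested. DESeq2 called 29 members higher and 15 lower, against 9.25% and 4.1% of the genes it tested.

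These counts rested on which libraries were used. Without vector sample 1, only 1 member was called higher (background 0.136%) and 0 lower (0.0105%), with 14 lower at an unadjusted p under 0.05 (6.33% of all genes). Without vector sample 3, it was again 1 higher (0.162%) and 0 lower (0.0105%), with 16 lower before adjustment (6.5%). Leaving out vector sample 2, which stood nearer to the circEZH2_005 samples, gave 14 higher (5.74%) and 9 lower (1.74%). Leaving out circEZH2_005 sample 1 gave 24 higher (2.91%) and 2 lower (0.674%). Without circEZH2_005 sample 2 there were 5 higher (0.325%) and 0 lower (0.0314%), with 25 lower before adjustment (6.69%), and without sample 3 there were 4 higher (0.71%) and 1 lower (0.172%). Of the 11 called members, Slc23a4 was the one called in all 6 of these fits.

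**Figure D1:**
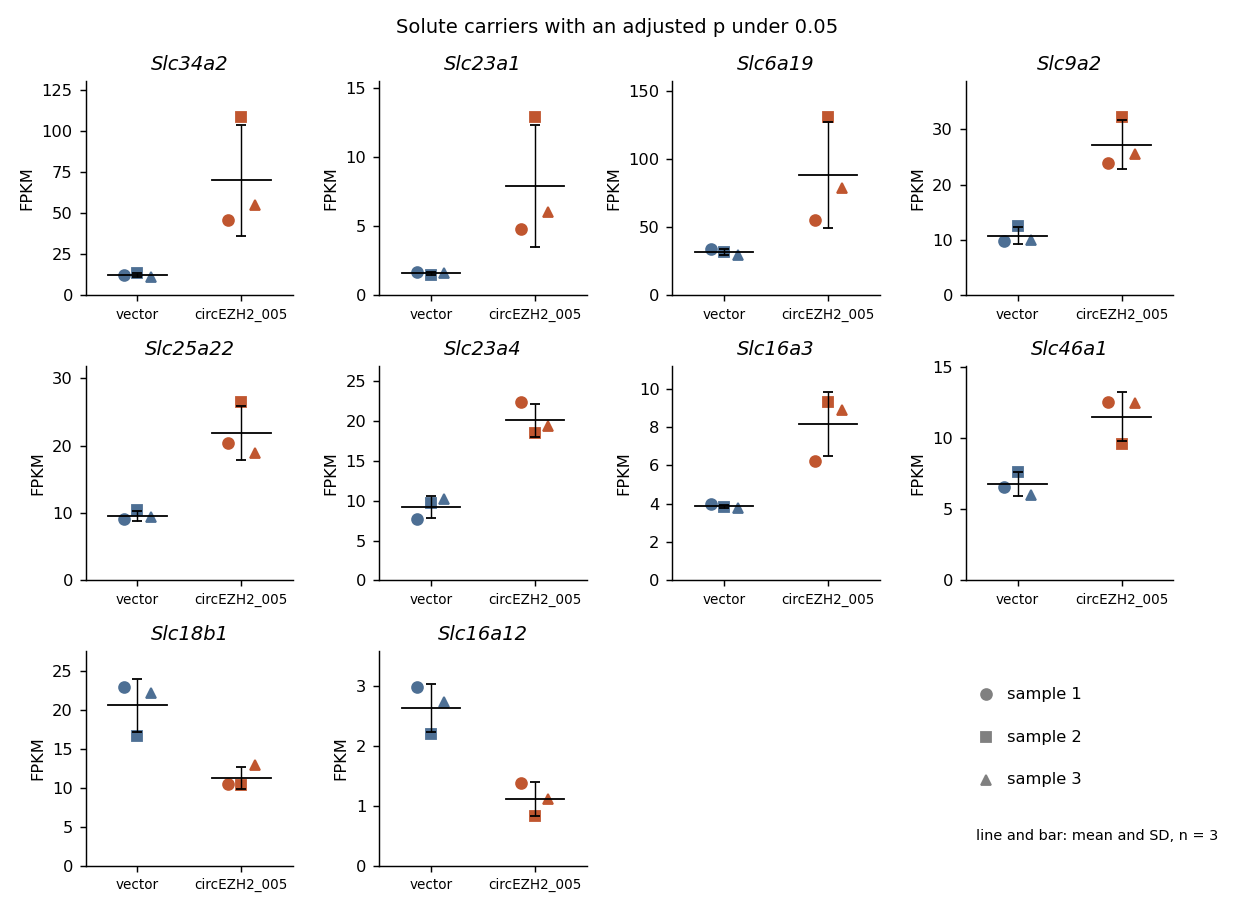
FPKM in each sample for 10 of the 11 solute carriers with an adjusted p under 0.05, with vector in blue and circEZH2_005 in orange, a horizontal line for the mean and a bar for the SD (n = 3 per group). Circles, squares and triangles mark samples 1, 2 and 3. The groups do not overlap in any panel, and circEZH2_005 sample 2 stands far above the others for Slc34a2 (108.9 FPKM) and Slc6a19 (130.8 FPKM).

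The largest log2 fold changes among members were in brush border carriers. Slc34a2 (chr5:53038081-53071664, plus strand, GRCm38), the sodium-phosphate cotransporter through which the gut takes up phosphate, was at 12.3, 13.4 and 10.98 FPKM in vector samples 1 to 3. It was at 46.2, 108.9 and 55.3 FPKM in circEZH2_005 samples 1 to 3. Every circEZH2_005 sample lay above every vector sample, with sample 2 at the top. The log2 fold change was 2.63 (SE 0.34), or 6.19-fold (adjusted p = 0.0176). With vector sample 1 or 3 left out, the adjusted p was 0.0906 or 0.103. Gm17182 overlaps Slc34a2 on the opposite strand.

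Slc23a1, a sodium-dependent vitamin C carrier, showed the next largest difference among called members. It was at 1.68, 1.49 and 1.59 FPKM with vector and 4.80, 12.9 and 6.02 FPKM with circEZH2_005. As for Slc34a2, sample 2 was the highest. The log2 fold change was 2.43 (SE 0.39, adjusted p = 0.0263), and without vector sample 1, vector sample 3 or circEZH2_005 sample 3 the adjusted p was 0.112, 0.128 or 0.0528. Paip2 lies on the opposite strand over part of it, and since no source states that strand was used in counting, reads of the pair cannot be told apart.

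Slc6a19 (chr13:73679745-73704865, minus strand) is the main carrier of neutral amino acids in the brush border. It was at 34.1, 32.1 and 29.4 FPKM with vector and 55.2, 130.8 and 78.9 FPKM with circEZH2_005. The vector samples lay close together, and the circEZH2_005 samples all lay above them but were widely spread. The log2 fold change was 1.58 (SE 0.31, adjusted p = 0.0426), past the threshold in 1 of the 6 fits that left out a sample, the one without circEZH2_005 sample 1 (0.0123). Without the other samples it was between 0.0539 (vector sample 2 left out) and 0.172 (vector sample 3 left out). The antisense gene Slc6a19os overlaps Slc6a19.

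Slc9a2 (chr1:40680574-40769273, plus strand), a sodium-proton exchanger of the apical membrane, was at 9.77, 12.5 and 10.1 FPKM with vector and 23.9, 32.2 and 25.4 FPKM with circEZH2_005. All circEZH2_005 samples were well above the vector samples, with a log2 fold change of 1.43 (SE 0.17, adjusted p = 0.0130). Slc9a3, the main absorptive sodium-proton exchanger of the brush border, had a log2 fold change of 0.51 (SE 0.15) that did not pass (adjusted p = 0.0942). Leaving out vector sample 1 or 3 took Slc9a2 to 0.0761 and 0.0849. Gm37623 overlaps Slc9a2 on the opposite strand.

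Slc46a1 (chr11:78465697-78471945, plus strand) is the proton-coupled folate carrier of the brush border. It was at 6.60, 7.67 and 6.01 FPKM with vector and 12.6, 9.57 and 12.5 FPKM with circEZH2_005. Here circEZH2_005 sample 2 was the lowest of its group, the reverse of Slc34a2 and Slc6a19, yet still above all vector samples. The log2 fold change was 0.86 (SE 0.13, adjusted p = 0.0226). It passed without vector sample 2 or circEZH2_005 sample 1, and without each of the other samples the adjusted p was between 0.0510 and 0.111.

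Outside both membrane lists, Slc23a4 (chr6:34945278-34988404, minus strand), whose rat counterpart carries nucleobases, had the smallest adjusted p of all members. It was at 7.66, 9.71 and 10.2 FPKM with vector and 22.3, 18.5 and 19.3 FPKM with circEZH2_005. Both groups were tight, with a log2 fold change of 1.21 (SE 0.11, adjusted p = 0.00489). It passed in all 14 alternative fits, with an adjusted p of at most 0.0336.

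Slc25a22 (chr7:141429744-141437892, minus strand), a mitochondrial glutamate carrier, was at 9.05, 10.5 and 9.35 FPKM with vector and 20.3, 26.5 and 18.9 FPKM with circEZH2_005. Its groups were far apart, at a log2 fold change of 1.28 (SE 0.15, adjusted p = 0.0138). It was called in 4 of the 6 fits that left out a sample, and stood at 0.0842 without vector sample 1 and 0.0939 without vector sample 3.

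The carrier of monocarboxylates that rose was Slc16a3 (chr11:120948480-120958775, plus strand), which exports lactate from glycolytic cells and is known as a target of hypoxia-inducible factor (HIF). It was at 3.96, 3.84 and 3.79 FPKM with vector and 6.23, 9.31 and 8.90 FPKM with circEZH2_005. The vector samples were almost equal, and circEZH2_005 sample 1 lay between them and the other circEZH2_005 samples. The log2 fold change was 1.18 (SE 0.18, adjusted p = 0.0244), and it passed when vector sample 2 or circEZH2_005 sample 1 was left out, but not without the others (0.0661 to 0.125).

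Both members that fell carry small organic solutes. Slc16a12 (chr19:34668403-34747289, minus strand), a creatine carrier, was at 2.99, 2.20 and 2.73 FPKM with vector and 1.39, 0.830 and 1.12 FPKM with circEZH2_005. It fell by 1.17 on the log2 scale (SE 0.20, adjusted p = 0.0314), with all circEZH2_005 samples below the vector samples. Slc18b1 (chr10:23796986-23827968, plus strand), a vesicular polyamine carrier, was at 22.9, 16.6 and 22.1 FPKM with vector and 10.5, 10.4 and 12.9 FPKM with circEZH2_005. It fell by 0.78 on the log2 scale (SE 0.16, adjusted p = 0.0464), and vector sample 2 was the vector sample nearest to the other group. Slc16a12 passed in 2 of the 6 fits with a sample left out, with values up to 0.129 in the others. Slc18b1 passed in 1 of 6, without vector sample 2 (0.00868), with values up to 0.170 in the others.

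To show the letters around the RefSeq starts of the called carriers, promoter windows were taken from RefSeq (GRCm38.p6, 250 bases before to 50 after each start). The windows were matched by symbol to 152 of the 200 members, 8 of the 11 called. They were searched on both strands for the core letters of motifs of HIF (ACGTG), of the enterocyte factor HNF4 (AAAGTCCA) and of the intestinal factor CDX2 (TTTATNG). The HIF core lay in 19.6% of all 32851 windows and in 29.9% of the 201 windows of members. The CDX2 core lay in 10.9% of all windows and 5.47% of member windows, and the HNF4 core in 1.25% and 0.995%. All windows were not limited to protein-coding genes or by level, as the members were. The 2 sets are therefore unlike, and these shares do not tell carriers from other expressed genes. Among the 8 called members, 2 held the HIF core, 1 the CDX2 core and 0 the HNF4 core. Counted by gene, these cores lay in 21.8%, 12.5% and 1.46% of all 27025 genes with windows, in that order. The stretches below are shown because they hold these matches in genes that rose or fell. Each is read 5′ to 3′ on the gene's strand, with the matching letters in capitals.
Slc16a3, chr11:120949029-120949055, plus strand: aggcagcggtgACGTGcgcgggggacg
Slc16a3, chr11:120949042-120949068, plus strand: gtgcgcgggggACGTGccgcgcgacgg
Slc16a12, chr19:34747552-34747578, minus strand: ttgcaagatgcACGTGcaggagacttt
Slc46a1, chr11:78465472-78465500, plus strand: agttacgttgtCAATAAAtgttagttatt
The Slc46a1 match is the CDX2 core read on the reverse strand. In Slc16a12 the letter before the match is C, so the match lies in the palindromic E-box CACGTG. That E-box also holds the HIF core on the reverse strand. The HIF core lay in windows of Slc16a3, which rose, and of Slc16a12, which fell. The windows follow RefSeq starts, and both Slc16a3 matches lie inside the span given above for that gene. A match is a description of letters, not a binding site.

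**Figure D2:**
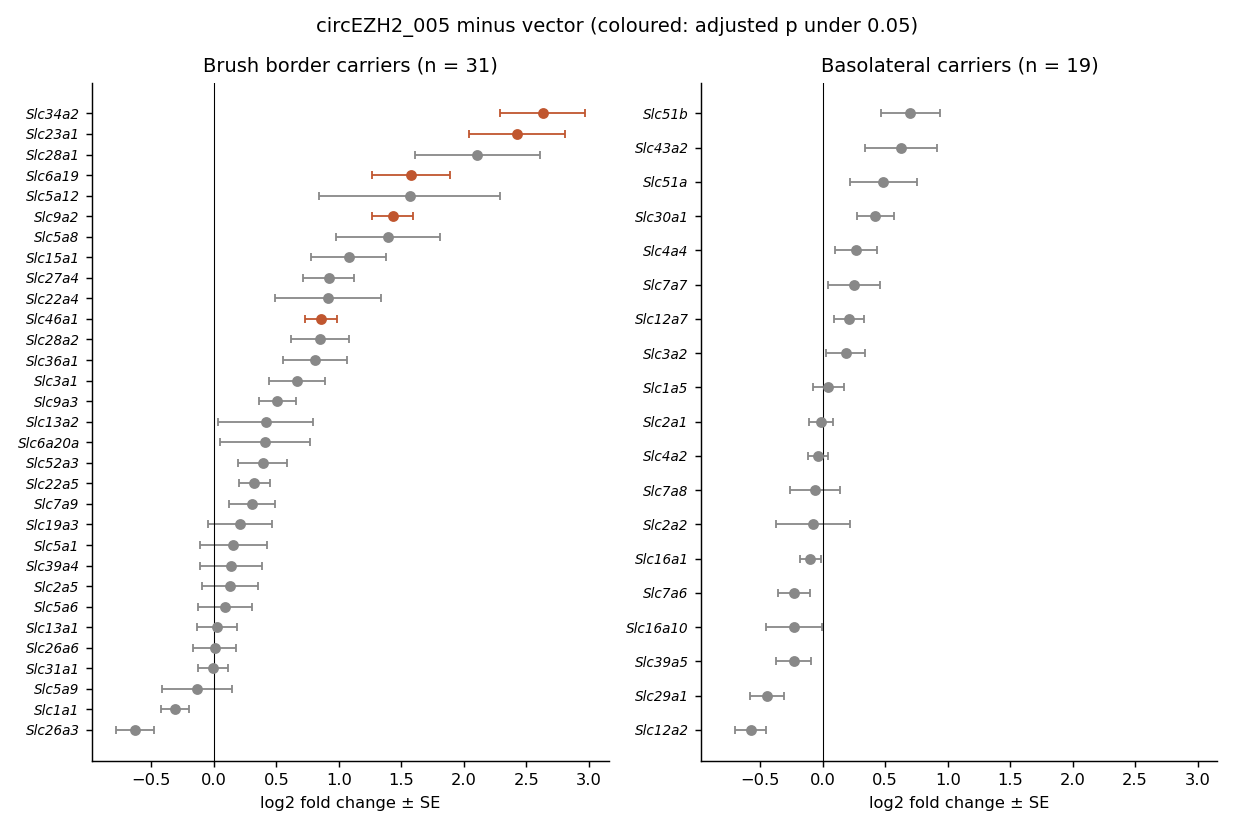
Log2 fold change (circEZH2_005 minus vector, edgeR) with its SE for the 31 brush border carriers on the left and 19 of the 20 basolateral carriers on the right. Coloured points have an adjusted p under 0.05. Of the brush border carriers 27 lie above 0, from Slc26a3 at -0.63 to Slc34a2 at 2.63.

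Sorted by membrane, brush border and basolateral carriers were described as lists of known enterocyte genes. Of 31 brush border members, 5 rose and 0 fell (14 and 2 at an unadjusted p under 0.05, and 12 and 1 by DESeq2). Over all genes tested the shares that rose and fell were 2.69% and 0.986%, with 14% and 9.72% before adjustment, and 9.25% and 4.1% by DESeq2. The brush border median log2 fold change was 0.41, against 0.06 over all members, and 27 of the 31 had a positive value. In 13 the CPM of all circEZH2_005 samples lay above those of vector, and in 2 below, against 16.4% and 14.2% of all genes tested. Of 20 basolateral members, 1 rose and 0 fell (3 and 2 before adjustment, 2 and 2 by DESeq2), with a median of 0.01. The other 149 members, on neither list, had 3 that rose and 2 that fell, and a median of 0.01. Without vector sample 1 or vector sample 3, 0 brush border members were called higher (14 and 12 before adjustment, against 10.4% and 10.5% of all genes). Without circEZH2_005 sample 1, 10 were called higher, against 2.91% of all genes tested. The median stayed between 0.34 and 0.65 in the fits that left out a single sample. It was 0.29 without vector sample 2 and circEZH2_005 sample 2 together, and 0.26 with limma on log2(FPKM + 1).

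Several brush border carriers had large log2 fold changes that did not pass. Slc28a1, for pyrimidine nucleosides, was at 1.13, 2.04 and 0.785 FPKM with vector and 2.38, 5.96 and 7.43 FPKM with circEZH2_005 (2.11, SE 0.50, adjusted p = 0.0601). Slc15a1, the proton-coupled peptide carrier, was at 19.1, 19.4 and 16.95 FPKM with vector and 21.97, 51.05 and 35.6 FPKM with circEZH2_005 (1.08, SE 0.30, adjusted p = 0.0833). Slc27a4 was at 105.2, 91.9 and 96.0 FPKM with vector and 131.1, 216.8 and 168.3 FPKM with circEZH2_005 (0.92, SE 0.21, adjusted p = 0.0553). In all 3 the groups did not overlap, and circEZH2_005 sample 1 was the lowest of its group. Slc5a8 (1.39, SE 0.42, adjusted p = 0.0986) and Slc5a12 (1.57, SE 0.72, adjusted p = 0.241), both sodium-coupled carriers of lactate and other monocarboxylates, varied more. Slc5a12 was at 8.15 FPKM in vector sample 2 against 2.02 and 0.984 FPKM in the other vector samples. On the negative side stood Slc26a3, which takes up chloride in exchange for bicarbonate, at 28.3, 20.1 and 25.7 FPKM with vector and 14.3, 14.2 and 16.5 FPKM with circEZH2_005 (-0.63, SE 0.15, adjusted p = 0.0600).

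Hexose carriers differed by less than their spread. Slc5a1 was at 377.1, 378.0 and 317.4 FPKM with vector and 257.7, 521.6 and 329.8 FPKM with circEZH2_005. The circEZH2_005 samples lay on both sides of the vector samples, and the log2 fold change was 0.15 (SE 0.27, adjusted p = 0.782). Slc2a5, the fructose carrier, was at 0.13 (SE 0.22, adjusted p = 0.781), and Slc2a2, the basolateral exit for hexoses, at -0.08 (SE 0.30, adjusted p = 0.910), both on the log2 scale. With SEs of this size, a moderate change in either direction was not detectable with 3 samples per group.

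For carriers built of a pair of subunits, both partners are given. Slc3a1 and Slc7a9, which together take up cystine and dibasic amino acids, had log2 fold changes of 0.67 (SE 0.23, adjusted p = 0.128) and 0.31 (SE 0.18, adjusted p = 0.363). For Slc3a1 the FPKM were 54.3, 55.1 and 51.04 with vector and 61.1, 107.4 and 68.7 with circEZH2_005, and for Slc7a9 52.4, 48.05 and 50.03 with vector and 47.3, 72.8 and 53.5 with circEZH2_005. Both were highest in circEZH2_005 sample 2. The basolateral bile acid exporter is made of Slc51a and Slc51b, with log2 fold changes of 0.48 (SE 0.27, adjusted p = 0.326) and 0.70 (SE 0.24, adjusted p = 0.128). Slc51b was at 78.6, 55.4 and 72.1 FPKM with vector and 82.2, 137.3 and 92.8 FPKM with circEZH2_005. Slc3a2, the shared heavy chain of several amino acid exchangers, was at 46.9, 38.2 and 45.2 FPKM with vector and 39.8, 53.1 and 45.4 FPKM with circEZH2_005 (log2 fold change 0.18, SE 0.16, adjusted p = 0.541). Its light chains Slc7a5, Slc7a6, Slc7a7 and Slc7a8 had log2 fold changes of 0.63, -0.23, 0.25 and -0.06, and for each the groups overlapped. The value of Slc7a5 came from circEZH2_005 sample 1, at 13.7 FPKM against 3.01 to 5.49 FPKM in the other 5 samples.

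Among basolateral carriers, Slc12a2, which loads crypt cells with chloride for secretion, came closest to the threshold on the negative side. It was at 32.1, 31.5 and 37.2 FPKM with vector and 24.4, 17.1 and 22.3 FPKM with circEZH2_005, a log2 fold change of -0.58 (SE 0.12, adjusted p = 0.0509). Cftr, the apical chloride channel that works with it in secretion and is no solute carrier, had a log2 fold change of -0.47 (adjusted p = 0.0509). The zinc carrier Slc39a5 was at 69.9, 56.5 and 65.5 FPKM with vector and 44.9, 54.5 and 53.4 FPKM with circEZH2_005 (log2 fold change -0.23, SE 0.14, adjusted p = 0.366). The groups did not overlap for Slc12a2 on either scale, while for Slc39a5 the CPM overlapped.

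**Figure D3:**
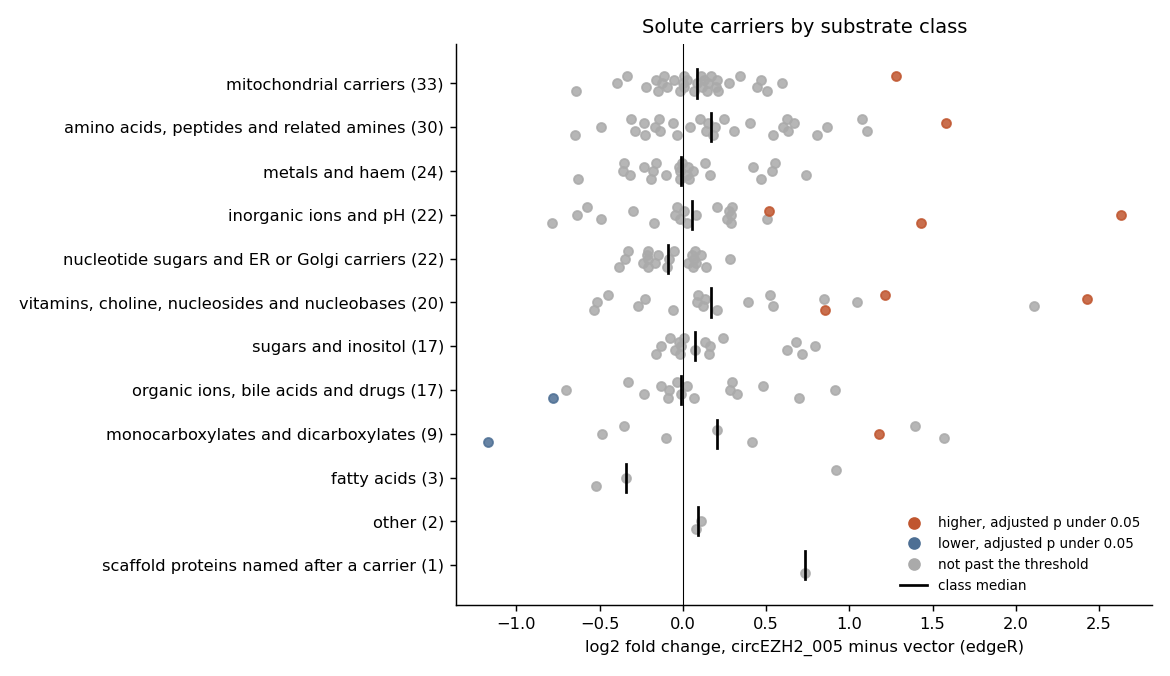
Log2 fold change (circEZH2_005 minus vector, edgeR) of each of the 200 members, grouped by what they carry, with the number of members in parentheses and a bar at the class median. Orange points rose and blue points fell at an adjusted p under 0.05, and class medians lie between -0.34 (fatty acids, 3 members) and 0.73 (a single scaffold protein).

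By what they carry, the called members were spread over 6 of 12 classes. For comparison, 2.69% of all genes tested rose and 0.986% fell. These shares were 14% and 9.72% before adjustment, and 9.25% and 4.1% by DESeq2. Carriers of inorganic ions and pH (22 members) had 3 that rose, Slc34a2 and Slc9a2 among them, and 0 that fell. Before adjustment 7 were higher and 4 lower, and by DESeq2 4 and 4. Their median log2 fold change was 0.05, and the lowest value, -0.78, was at the sodium-bicarbonate carrier Slc4a5 (adjusted p = 0.101). Vitamin, choline, nucleoside and nucleobase carriers (20 members) had 3 that rose, Slc23a1, Slc23a4 and Slc46a1, and 0 that fell. In this class 7 were higher and 5 lower before adjustment, and 6 and 3 by DESeq2. The lowest log2 fold change of the class was -0.54 for the reduced folate carrier Slc19a1 (adjusted p = 0.0886). Slc23a1 and Slc23a4 belong to a single family but differed in the order of samples, since circEZH2_005 sample 2 was highest for Slc23a1 and lowest for Slc23a4.

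Amino acid, peptide and amine carriers (30 members) ranged from -0.65 for the proline carrier Slc6a7 (adjusted p = 0.288) to Slc6a19, the single member that rose, and had a median log2 fold change of 0.17. Slc6a7 averaged 1.27 FPKM with vector and 0.761 FPKM with circEZH2_005, so it was a member only through its vector samples. Mitochondrial carriers (33 members) ranged from -0.64 for the coenzyme A carrier Slc25a42 (adjusted p = 0.116) to Slc25a22, the single member that rose, with a median of 0.09. Slc25a24, an ATP-magnesium and phosphate carrier, was among the 20 members with the highest FPKM and had 50.6, 42.7 and 47.5 FPKM with vector and 56.6, 61.8 and 49.7 FPKM with circEZH2_005 (log2 fold change 0.34, SE 0.12, adjusted p = 0.137). Monocarboxylate and dicarboxylate carriers (9 members) had 1 that rose and 1 that fell, both of the Slc16 family, and a median of 0.21. For each of these classes the shares over all genes tested were 2.69% that rose and 0.986% that fell. Organic ion, bile acid and drug carriers (17 members) ranged from Slc18b1, which fell, to 0.91 for the ergothioneine carrier Slc22a4 (adjusted p = 0.241).

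In the remaining classes edgeR called 0 members, against 2.69% of all genes tested that rose and 0.986% that fell. Before adjustment 14% of all genes were higher and 9.72% lower, and DESeq2 called 9.25% and 4.1%. Metal and haem carriers (24 members) ran from -0.63 for the zinc importer Slc39a8 (adjusted p = 0.0640) to 0.74 for the zinc importer Slc39a6 (adjusted p = 0.0677), with 5 higher and 4 lower before adjustment and 3 and 2 by DESeq2. Carriers of nucleotide sugars and of the ER and Golgi (22 members) had the narrowest range of the larger classes, from -0.38 for the CMP-sialic acid carrier Slc35a1 (adjusted p = 0.0764) to 0.28 for Slc35a5 (adjusted p = 0.267), with 0 higher and 5 lower before adjustment and 0 and 1 by DESeq2. Slc35b1, which brings ATP into the ER, was the most abundant of them at 60.1 FPKM, with a log2 fold change of -0.21 (SE 0.14, adjusted p = 0.424). Sugar and inositol carriers (17 members) ran from -0.16 for Slc50a1 to 0.79 for the sugar-phosphate exchanger Slc37a2 (adjusted p = 0.214), with 2 and 0 before adjustment and 1 and 0 by DESeq2. In 16 of these 17 the CPM of the groups overlapped, while in 30.6% of all genes tested they did not overlap. Of the 3 fatty acid carriers, Slc27a2 had -0.52 (adjusted p = 0.131) and Slc27a4 0.92, and 1 in each direction passed before adjustment and by DESeq2. The unclassified Slc49a4 (0.11) and Slc66a2 (0.08) were near 0, and the scaffold Slc9a3r1 had 0.73 (SE 0.22, adjusted p = 0.0990). Slc9a3r1 was at 190.2, 183.8 and 165.1 FPKM with vector and 215.2, 368.2 and 250.1 FPKM with circEZH2_005.

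Slc6a8 and Slc16a12, both carriers of creatine, had log2 fold changes of opposite sign, and only that of Slc16a12 passed. Slc6a8, which takes creatine into cells, was at 45.3, 45.6 and 46.01 FPKM with vector and 60.1, 95.5 and 77.2 FPKM with circEZH2_005. The groups did not overlap, but the log2 fold change of 0.87 (SE 0.19) did not pass (adjusted p = 0.0519), while Slc16a12 fell, as above. Slc44a2, of the choline carrier-like family (1.04, SE 0.23, adjusted p = 0.0521), and Slc10a5, of the bile acid carrier family (-0.70, SE 0.15, adjusted p = 0.0532), also narrowly missed the threshold. These 3 genes, like Slc25a24 and Slc35b1, were named after their values were seen. Slc44a2 averaged under 1 FPKM with vector, so it was a member only through its circEZH2_005 samples. At an adjusted p under 0.1, 24 members were higher (7.59% of all genes tested) and 10 lower (3.74%).

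**Figure D4:**
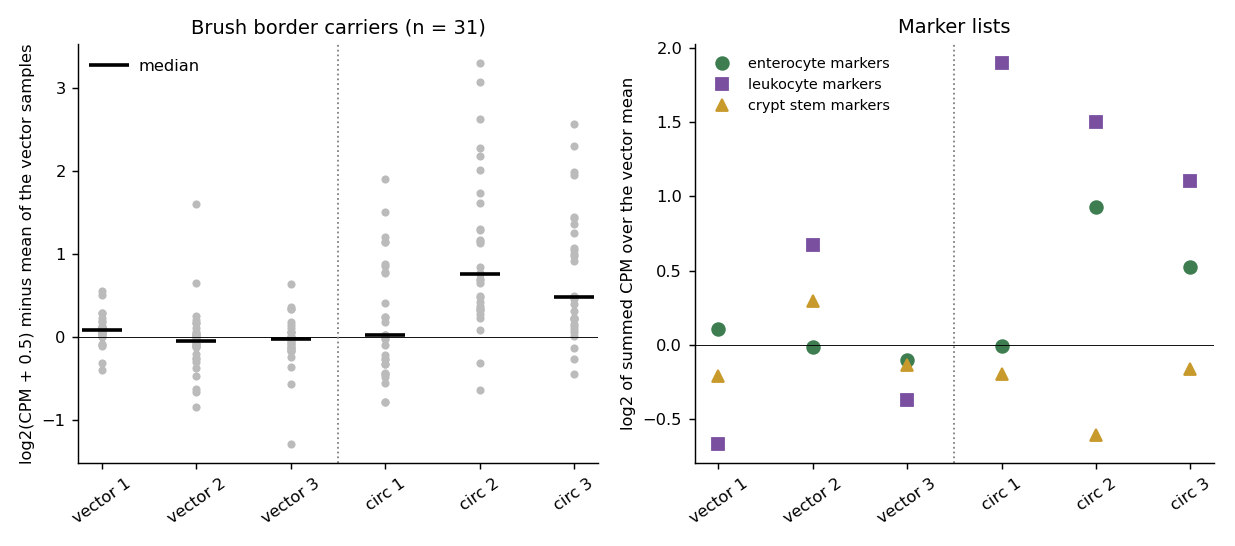
Left, log2(CPM + 0.5) of each of the 31 brush border carriers in each sample, minus its mean over the 3 vector samples, with a bar at the median. Right, the summed CPM of the enterocyte, leukocyte and crypt stem markers in each sample on a log2 scale, relative to the vector mean (circ stands for circEZH2_005). The brush border medians of circEZH2_005 samples 1 to 3 are 0.02, 0.77 and 0.49, and the enterocyte markers follow the same order.

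The carriers varied together from sample to sample within a group. Among the 31 brush border members, circEZH2_005 sample 1 was the lowest of its group in 29 and sample 2 the highest in 23. Over all 200 members these counts were 134 (67.0%) and 117 (58.5%), against 34.4% and 34.1% of all genes tested. In the vector group, sample 2 was the lowest in 120 of 200 members (60.0%), against 38.1% of all genes. Relative to the vector mean, the median brush border carrier stood at 0.02, 0.77 and 0.49 on the log2 scale in circEZH2_005 samples 1 to 3, so it was above vector in samples 2 and 3 and at the vector level in sample 1. The enterocyte markers summed to 17344, 15942 and 14959 CPM with vector and to 16001, 30577 and 23167 CPM with circEZH2_005, and were thus high in the same samples. Of these 10 markers, 1 rose, Apoa4 (log2 fold change 0.91, adjusted p = 0.0279), with 8 higher and 0 lower before adjustment. The markers Sis and Fabp1 had negative log2 fold changes that did not pass. These were -0.29 for Sis (adjusted p = 0.579, edgeR) and -0.37 for Fabp1 (adjusted p = 0.470, edgeR), and in both the CPM of the groups overlapped. Of the 7 crypt stem markers, 2 fell, Smoc2 (-0.81, adjusted p = 0.0203) and Lgr5 (-0.88, adjusted p = 0.0434), with 0 higher and 3 lower before adjustment. Over all genes tested, 2.69% rose and 0.986% fell, with 14% and 9.72% before adjustment. The crypt stem sums overlapped, at 2150, 3049 and 2267 CPM with vector and 2178, 1638 and 2220 CPM with circEZH2_005. The part of these markers in the carriers' differences was not tested.

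The carriers were also expressed as a percent of the enterocyte marker sum of the same sample, as a description chosen after the data were seen and with no test. Sis, the sucrase-isomaltase of the brush border, made up 25.6% to 28.3% of that sum in the vector samples and 13.7% to 17.02% in the circEZH2_005 samples. Slc34a2 was at 0.391%, 0.449% and 0.397% with vector and 1.55%, 2.14% and 1.41% with circEZH2_005. Slc6a19 was at 1.08%, 1.08% and 1.06% with vector and 1.85%, 2.57% and 2.01% with circEZH2_005. Slc5a1 was at 9.80%, 10.4% and 9.40% with vector and 7.09%, 8.40% and 6.89% with circEZH2_005. Slc2a2 was at 1.53%, 1.54% and 1.54% with vector and 0.838%, 1.14% and 0.954% with circEZH2_005. On this scale Slc34a2 and Slc6a19 lay above vector in all 3 circEZH2_005 samples, while Slc5a1 and Slc2a2 lay below it. Of 31 brush border members 8 lay above in all samples, 10 lay below and 13 overlapped, and of 20 basolateral members 0 lay above, 7 below and 13 overlapped. No share over all genes was taken on this scale, so these counts cannot be set against other genes. The marker sum averaged 16082 CPM with vector and 23248 CPM with circEZH2_005, so a gene with equal CPM in both groups stands lower on this scale with circEZH2_005. Slc23a4 and Slc46a1, both called, overlapped between the groups on this scale.

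**Figure D5:**
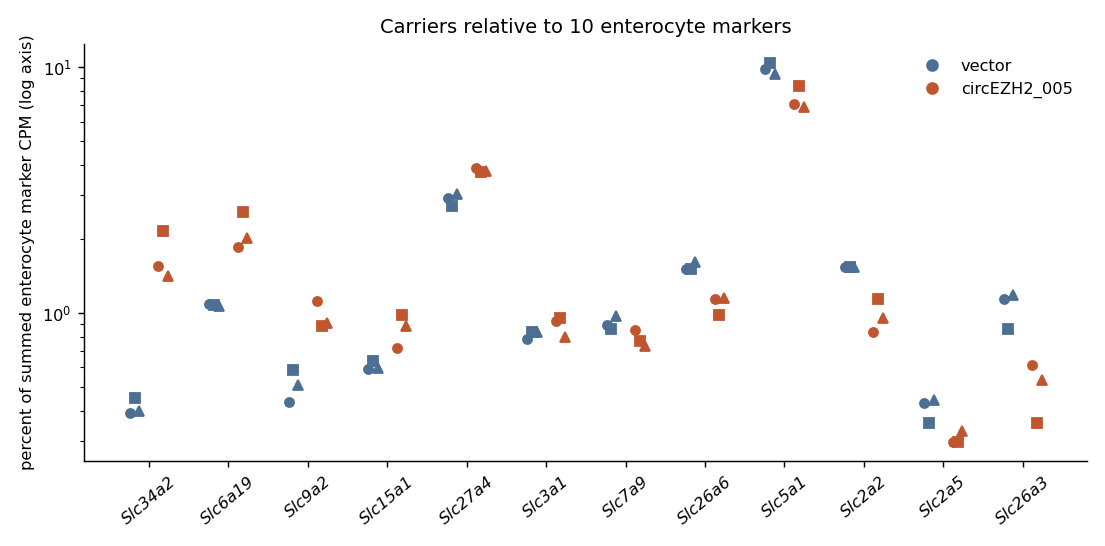
CPM of 12 carriers as a percent of the summed CPM of 10 enterocyte markers in the same sample, on a log axis, with vector in blue and circEZH2_005 in orange. Circles, squares and triangles are samples 1, 2 and 3. Slc34a2, Slc6a19, Slc9a2, Slc15a1 and Slc27a4 lie above vector in all 3 circEZH2_005 samples, and Slc5a1, Slc2a2, Slc2a5, Slc26a6, Slc7a9 and Slc26a3 lie below.

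Genes that work with these carriers but are not members were read from a list of pumps, partners and other transporters of the epithelium. Of 18 tested, 1 rose and 0 fell (8 and 4 before adjustment, 5 and 2 by DESeq2). The shares of all genes tested that rose and fell were 2.69% and 0.986%. They were 14% and 9.72% before adjustment, and 9.25% and 4.1% by DESeq2. The gene that rose was Slco2a1, the prostaglandin uptake carrier, at 27.0, 36.5 and 31.7 CPM with vector and 55.1, 127 and 80.5 CPM with circEZH2_005 (log2 fold change 1.46, adjusted p = 0.0402). Pdzk1, a scaffold for apical carriers, had 1.26 (adjusted p = 0.0956). Cftr and Pdzk1 were named after their values were seen.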

How the data were processed

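RNA sequencing was measured in 6 samples, 3 with the vector and 3 with circEZH2_005, grouped and numbered from the sample titles. Control columns of the deposited table are named as negative control, and were taken as vector, the only control group. The authors deposited read counts per gene, not normalized, and FPKM per gene, normalized by them for length and library size. The submitters' processing notes name cutadapt 1.9, HISAT2 2.0.4, StringTie 1.3.4d, DESeq2 and the build mm10. The counter, the annotation and whether strand was used are not given in the sources used here. The table held 0 unused columns of sample values.

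R 4.3.3 and edgeR 4.0.16 (filterByExpr, TMM, quasi-likelihood test, no covariate) were used, adjusting by Benjamini-Hochberg over 18348 genes. The SE was taken as the size of the log2 fold change over the root of its F statistic. Alternatives used DESeq2 1.42.0, limma 3.58.1 on log2(FPKM + 1) or log2(FPKM + 0.1), other scalings, filters and thresholds, a replicate block, and each sample left out. The smallest exact permutation p with 3 samples per group is 0.1. The fit was tested on simulated data. Depth was between 71506487 and 79919893 counts per sample.

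The members, lists and classes were chosen with earlier results of these data known. Named genes were called members, the 5 most abundant, list members (in full if called or among the 20 most abundant), class extremes, subunit partners, called partner genes and those at the minimum. Of the 200 members, 195 had a mean of at least 1 FPKM in both groups, 2 were under it with vector and 3 with circEZH2_005. All 200 passed the filter. A gene on the same strand overlapped 24 members, and a gene on the other strand 62. Of the called members, 6 were overlapped by a gene on either strand. The results for a few of these genes are not reported here.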

Additional observations from a re-analysis of the deposited data

How the results depend on the processing

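Against 9 members higher and 2 lower, median-of-ratios scaling gave 9 and 3 (2.58% and 1.02% of all genes tested) and kept all 11 calls. Without a filter on counts there were 5 and 0 (0.459% and 0.129%), with 39 and 29 at an unadjusted p under 0.05 by edgeR (9.49% and 6.73%). With a minimum mean of 1 FPKM there were 12 and 4 (4.48% and 1.82%), with DESeq2 29 and 15, with limma on log2(FPKM + 1) 8 and 4 (2.33% and 2.2%), and with limma on log2(FPKM + 0.1) 6 and 1 (1.27% and 0.911%). Of the 11 calls, these fits kept 5, 11, 11, 10 and 7, in that order. With members of at least 2 FPKM (178) there were 9 and 1, of at least 0.5 FPKM (222) 10 and 3, and of at least 1 FPKM in each group (195) 9 and 2. At an adjusted p under 0.1 there were 24 and 10. Leaving out each sample gave 1 to 24 higher, 0 to 9 lower and a median log2 fold change of -0.02 to 0.13. Leaving out vector sample 2 and circEZH2_005 sample 2 together, chosen after seeing the data, gave 9 and 9 (4.05% and 0.922%), with 9 of the 11 calls kept. The median was -0.03 with limma at both pseudocounts and -0.04 without both samples 2. No named member that was called changed its sign. The cause of these shifts was not tested.

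With the replicate block there were 4 higher and 1 lower (1.31% and 0.196%), with a median of 0.05 and 5 of the 11 calls kept (Slc23a4, Slc9a2, Slc25a22, Slc34a2 and Slc16a12). Samples with the same number correlated in their deviations from the group means at -0.14, -0.02 and 0.04, so the data do not show that the numbers pair the samples. Depth was not varied, so its part in these counts was not tested.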

Other observations

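Among solute carriers below the minimum of 1 FPKM, 92 of 132 were tested by edgeR, and 2 rose and 1 fell. That is 3.26% of those tested, near the 3.67% of all genes tested. Slc43a3, a purine nucleobase carrier, was at 0.442, 1.35 and 0.741 CPM with vector and 8.45, 6.29 and 5.08 CPM with circEZH2_005, a log2 fold change of 2.96 (SE 0.42, adjusted p = 0.0208). Slc12a4, a potassium-chloride cotransporter, was at 0.166, 0.187 and 0.230 CPM with vector and 2.13, 1.48 and 0.977 CPM with circEZH2_005, a log2 fold change of 2.96 (SE 0.41, adjusted p = 0.0203). In both, circEZH2_005 sample 1 was the highest, the reverse of the brush border carriers. The leukocyte markers also summed to their highest value, 495 CPM, in that sample, and their part in these genes was not tested. Slc5a3, the sodium-coupled inositol carrier, just under the minimum, was at 13.9, 13.9 and 16.8 CPM with vector and 6.97, 7.27 and 8.35 CPM with circEZH2_005, and fell by 0.98 on the log2 scale (SE 0.14, adjusted p = 0.0215). Mrps6 overlaps Slc5a3 on the same strand, so the counting could split or share their reads.

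Of the T cell markers in the leukocyte list, Cd8a was at 17.1, 48.02 and 17.6 CPM with vector and 114, 101 and 71.6 CPM with circEZH2_005 (adjusted p = 0.0570, edgeR). Values of the other T cell markers of that list, Cd3e and Cd3g, are not given here. The carrier Slc37a2 was also highest in sample 2 among the vector samples, at 2.84 FPKM against 1.31 and 1.01 FPKM in samples 1 and 3. With circEZH2_005 it was at 2.48 to 3.11 FPKM. Vector sample 2 was the highest of its group in 38.6% of all genes tested and in 38 of the 200 members. The order of vector samples 1 and 3 differed between Cd8a and Slc37a2, and a link between these genes was not tested.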
